A study of Homo sapiens with 36 samples.

Results

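Superoxide dismutases, catalase and peroxidases are the enzymes that dispose of superoxide and of hydrogen and lipid peroxides. Their transcripts were examined in Caco-2 and HT-29 cells, human lines from colorectal tumours, after 24 h of chemical hypoxia. Members were found by symbol in the mRNA count table: SOD1, SOD2, CAT, GPX1, GPX2, GPX3, GPX4, GPX8, PRDX1 and PRDX3. These are 10 of its 60591 genes. All 10 passed the filter on low counts in each line. The 18 mRNA libraries formed 6 groups of 3 replicates each, by line and by treatment. The study's methods call the Caco-2 replicates biological. For HT-29 the sources used here do not say so, and p-values then measure only the spread between these libraries, which may be technical. Treated cells received CoCl2 at 300 µM or an oxyquinoline derivative at 5 µM (Oxy in the labels), and control cells received 0.5 µl of DMSO per ml of medium, the volume in which Oxy was added. Both agents are used to block the prolyl hydroxylases and so to keep hypoxia-inducible factor from being degraded. Each was used at 1 dose and 1 time, so a difference between them is a difference between these treatments. CoCl2 was dissolved in water. The study's methods, which cover the Caco-2 cells, state that its medium received DMSO as well, whereas the labels do not mention this and give a smaller share of DMSO for the controls than the methods do. The Caco-2 cells had been kept under differentiation conditions for 21 days, a step that is given for that line only. Line and culture state therefore cannot be told apart.

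Superoxide dismutases turn superoxide into hydrogen peroxide, SOD1 in the cytosol and SOD2 in the mitochondrial matrix. Hydrogen peroxide is then removed by catalase in peroxisomes, by glutathione peroxidases at the cost of glutathione, and by peroxiredoxins at the cost of thioredoxin. GPX2 is the glutathione peroxidase typical of the gut epithelium. GPX3 is the form secreted into plasma, GPX4 reduces lipid peroxides within membranes, and GPX8 sits in the endoplasmic reticulum and lacks the selenocysteine of the others. Many of these genes respond to the factor NRF2, which binds antioxidant response elements and is itself released by oxidants and electrophiles.

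The libraries held 12925719 to 22332639 counts, of which the members took 0.145% to 0.234%. Epithelial markers were abundant in both lines. EPCAM was at 451 CPM (counts per 1000000 of the library size, adjusted as described below) or above everywhere. The 7 epithelial markers summed to 4650 to 7984 CPM. Their sum was 4650 to 4809 CPM in Caco-2 controls, 7205 to 7984 with CoCl2 and 6153 to 6550 with Oxy, and in HT-29 it was 5120 to 5152, 6590 to 6947 and 6467 to 7074. Its part in the results was not tested. Of the epithelial markers, KRT20 was low in Caco-2, at 5.06 to 16.2 CPM against 313 to 946 in HT-29. CDX2 was low in HT-29, at 4.33 to 14.5 CPM against 146 to 332 in Caco-2. VIL1 stood at 30.1 to 208 CPM in HT-29 against 426 to 884 in Caco-2. The 7 enterocyte markers summed to 1125 to 1720 CPM in Caco-2 and to 143 to 212 CPM in HT-29, where ALPI and APOA4 were at or near 0, and FABP2 was near 0 in both lines. Markers of fibroblasts summed to 3.06 to 30.0 CPM, mostly COL1A1, those of endothelium to 0.299 to 12.5, those of immune cells to 0.0517 to 1.08 and those of red cells to 0 to 0.487, and COL1A2 and CDH5 were at 0 in HT-29 and HBB in Caco-2. In such bulk samples, fewer cells of a kind and less RNA per cell cannot be told apart. Library sizes were adjusted with TMM, a trimmed mean of the log ratios between libraries. With library size alone as the scale, the median of all genes moved by -0.32 (CoCl2) and -0.15 (Oxy) on the log2 scale in Caco-2 and by -0.63 and -0.14 in HT-29, so every change below is relative to the TMM scale. The first CoCl2 and the first Oxy library of Caco-2 stood apart from their group mates, with chi-square values (per degree of freedom) of 8.79 to 12.6 against them and of 3.42 and 3.43 between the other two, and in the HT-29 controls the third library did so less, with 5.00 and 6.10 against 1.99.

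The first comparison asked how each agent changed these transcripts against control. A gene passed at a false discovery rate (FDR) under 0.05 over all genes tested (edgeR quasi-likelihood test). In Caco-2 with CoCl2, 5 members rose (SOD1, GPX2, GPX3, GPX4 and PRDX1) and 1 fell (PRDX3), where 31.6% of the 16034 genes tested rose and 33.1% fell. In Caco-2 with Oxy, 6 rose, the same 5 and GPX8, and PRDX3 fell, against 25.7% and 24.7% of all genes. In HT-29 with CoCl2, 7 rose and 2 fell (GPX1 and GPX8), against 40.7% and 42.2% of 15812 genes. In HT-29 with Oxy, 5 rose and 2 fell (GPX8 and PRDX3), against 34.7% and 34.0%. GPX2, GPX3, GPX4 and PRDX1 rose in all 4 comparisons, and CAT passed in none. The 2 comparisons of a line share their control libraries.

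With the study's added limit of an absolute log2 fold change over 1, 4 members rose with CoCl2 in Caco-2 (background 9.13%) while HT-29 had 5 (17.4%), and those that fell were 0 (14.2%) and 1 (23.9%). With Oxy, 3 rose in Caco-2 (4.43%), HT-29 also had 3 (9.50%), and in either 0 fell (7.27% and 7.57%). The median log2 fold change was 0.47 over the members and -0.029 over all genes for CoCl2 in Caco-2, and 0.32 over the members and -0.023 over all genes for Oxy. In HT-29 it was 1.04 over the members and -0.032 over all genes for CoCl2, and 0.31 over the members and 0.0057 over all genes for Oxy. At the FDR limit alone, the 6 passing members stayed 6 in number without the first CoCl2 library of Caco-2. Without the first Oxy library the 7 became 6, the loss being SOD1. In these fits GPX4 with CoCl2 and GPX8 with Oxy stood under the fold limit, at 0.93 and 0.91. With library size alone, SOD1 (0.89) and GPX4 (0.72) with CoCl2 and GPX8 (0.85) with Oxy did so in Caco-2. In HT-29, SOD2 (0.82) and GPX2 (0.81) with CoCl2 and GPX3 (0.94) with Oxy did so. There GPX1 with CoCl2 (-1.03) and GPX8 with Oxy (-1.12) fell past the limit.

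**Figure D1:**
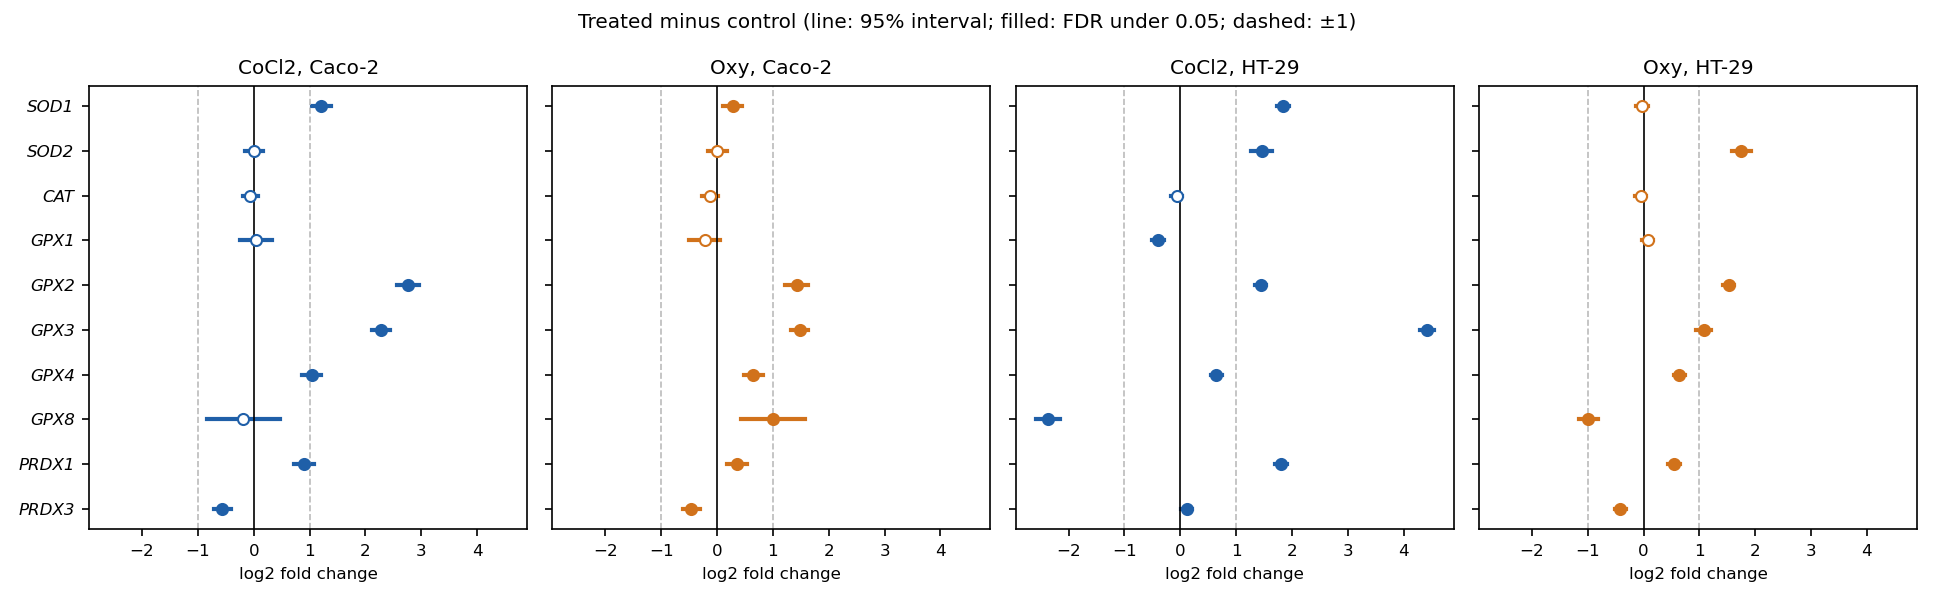
Log2 fold change of each of the 10 members against control, 1 panel per agent and line, with its 95% interval as a line. Filled points passed an FDR of 0.05 and dashed lines mark a log2 change of 1. GPX3 with CoCl2 in HT-29 lies farthest to the right at 4.41, and GPX8 in the same panel farthest to the left at -2.37.

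To compare levels between genes, values per transcript length were used (RPKM, length-scaled reads per library, recovered from the deposited log2 table, scaled within each line). In Caco-2 controls PRDX1 stood highest at 187 ± 2.69 RPKM (mean ± SD, n = 3), followed by GPX4 at 99.2 ± 6.20. SOD1, PRDX3 and CAT came next at 70.3 ± 3.04, 70.2 ± 3.83 and 68.2 ± 1.52, and neighbours among these 3 overlapped. They were followed by SOD2 (45.7 ± 2.86), by GPX3 (30.1 ± 0.567) and GPX1 (29.0 ± 3.30), which overlapped, and by GPX2 (9.97 ± 0.396) and GPX8 (0.418 ± 0.117). In HT-29 controls GPX2 led at 249 ± 9.16 RPKM. PRDX1 (114 ± 6.25), GPX4 (71.5 ± 2.83), GPX1 (66.1 ± 0.424), PRDX3 (58.6 ± 2.67), SOD1 (46.3 ± 2.94), CAT (34.4 ± 0.130), SOD2 (14.8 ± 0.464), GPX8 (6.93 ± 0.220) and GPX3 (5.87 ± 0.150) followed, and here no neighbours in the order overlapped. The summed RPKM of the 10 genes was 610.2 ± 9.68 in Caco-2 controls, 1089 ± 53.7 with CoCl2 and 758 ± 56.1 with Oxy. In HT-29 it was 667 ± 12.1, 1562 ± 33.1 and 1231 ± 37.8. In each line all treated libraries held more than all control libraries, and CoCl2 libraries more than Oxy libraries.

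**Figure D2:**
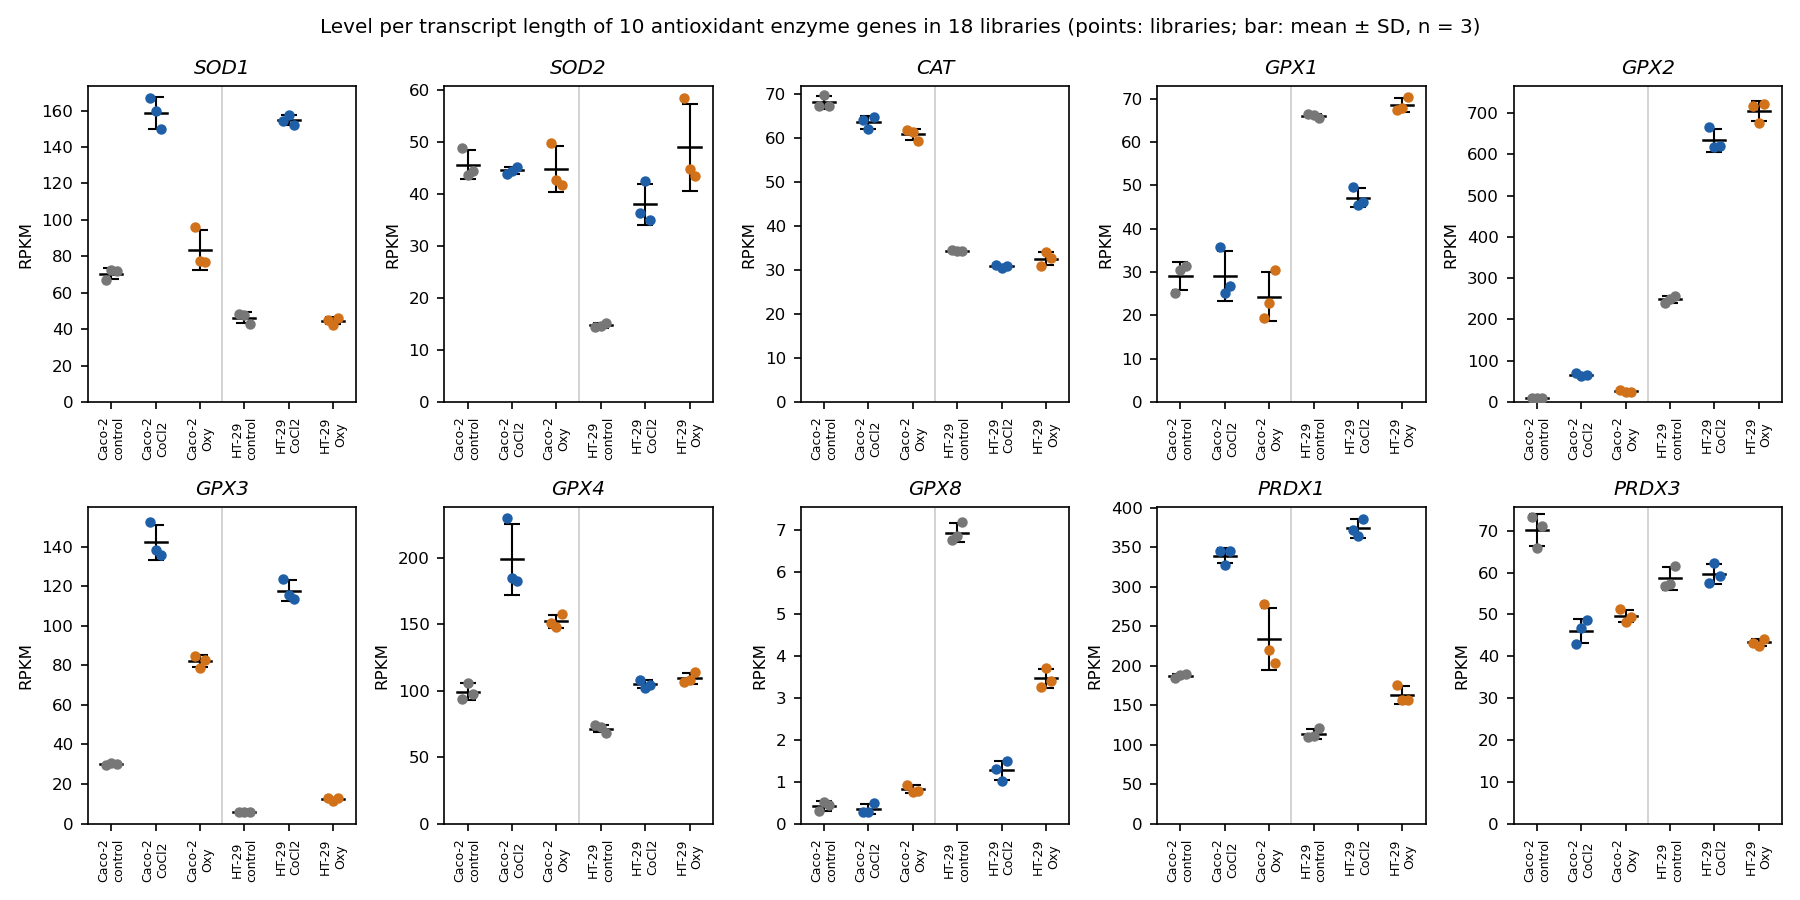
RPKM of each member in the 18 libraries (points), with the group mean and SD (n = 3). Each panel has its own linear axis from 0, and RPKM was scaled within each line. GPX2 lies between 9.51 and 69.7 RPKM in Caco-2 and between 239 and 721 in HT-29, while CAT is nearly level within each line.

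SOD1, the copper and zinc enzyme of the cytosol (chr21:31659666-31668931, plus strand, GRCh38), rose with CoCl2 in both lines. Caco-2 libraries held 129, 139.7 and 139.5 CPM in controls, 330.0, 318 and 298 with CoCl2 and 191, 154 and 153 with Oxy. HT-29 libraries held 92.2, 91.6 and 82.3 CPM in controls, 315, 323 and 309.7 with CoCl2 and 88.2, 82.5 and 89.6 with Oxy. All CoCl2 libraries lay far above their controls. The Oxy libraries of Caco-2 lay above their controls too, the first of them well above the other two, whereas those of HT-29 lay among the controls. The log2 fold change with CoCl2 was 1.21 ± 0.0837 (SE, FDR = 6.28e-12) in Caco-2, a 2.32-fold rise, and 1.84 ± 0.0524 (SE, FDR = 1.25e-21) in HT-29, a 3.57-fold rise. With Oxy it was 0.28 ± 0.0835 (SE, FDR = 0.00673) in Caco-2. That call was lost without the first Oxy library, at 0.17 (FDR = 0.0553), and on the library-size scale, at 0.13 (FDR = 0.175). In HT-29 with Oxy it was -0.028 ± 0.0535 (SE, FDR = 0.654), with a 95% interval of -0.14 to 0.082.

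SOD2, the manganese enzyme of mitochondria (chr6:159669069-159762529, minus strand), behaved differently in the 2 lines. Its Caco-2 level was 123, 109 and 112 CPM in controls, 113, 115 and 117 with CoCl2 and 129, 110.0 and 107 with Oxy. Its HT-29 level was 35.7, 36.3 and 38.0 CPM in controls, 96.0, 113 and 92.7 with CoCl2 and 148, 113 and 110.0 with Oxy. The Caco-2 groups overlapped, while every treated HT-29 library lay far above the controls, the first Oxy library highest. On the log2 scale SOD2 in HT-29 rose by 1.46 ± 0.0884 (SE, FDR = 2.05e-14) with CoCl2 and by 1.75 ± 0.0860 (SE, FDR = 8.01e-16) with Oxy, which is 2.74-fold and 3.37-fold. In Caco-2 the log2 fold change was 0.0020 ± 0.0798 (SE, FDR = 0.984) with CoCl2 and 0.0068 ± 0.0797 (SE, FDR = 0.949) with Oxy, with intervals of -0.16 to 0.17 and -0.16 to 0.17. On the library-size scale the CoCl2 value in Caco-2 was -0.32 (FDR = 8.68e-04). Exons of SOD2 share 437 bases with WTAP and 133 with ACAT2 on the opposite strand and 939 with the noncoding SOD2-OT1, and the use of strand in counting is not given in the sources used here. As a ratio of RPKM, SOD1 to SOD2 was 3.14 ± 0.291 in HT-29 controls, 4.09 ± 0.342 with CoCl2 and 0.923 ± 0.142 with Oxy. In Caco-2 it was 1.54 ± 0.158, 3.56 ± 0.246 and 1.86 ± 0.0562. The ratio was above all controls with CoCl2 in both lines and with Oxy in Caco-2, and below all controls with Oxy in HT-29.

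CAT, the peroxisomal catalase (chr11:34438934-34472060, plus strand), passed the test in no comparison with control. Its level was 236, 245 and 236 CPM in Caco-2 controls, 230.2, 224 and 234 with CoCl2 and 223, 221 and 213 with Oxy. In HT-29 it was 120.0, 119 and 119 CPM in controls, 115, 113 and 114 with CoCl2 and 109, 120.2 and 116 with Oxy. Treated libraries lay slightly below their controls, except that in HT-29 the Oxy libraries overlapped them. The log2 fold changes were -0.060, -0.13, -0.064 and -0.052 in the order CoCl2 and Oxy in Caco-2, then CoCl2 and Oxy in HT-29. The lowest FDR among them was 0.119, and the 95% interval of that value, for Oxy in Caco-2, was -0.27 to 0.012. These small values depend on the scale. With library size alone CAT passed as lower in all 4, from -0.19 for Oxy to -0.70 for CoCl2 in HT-29. With limma on log2 values, CAT passed as lower for Oxy in Caco-2 and for CoCl2 in HT-29, at -0.16 (FDR = 0.0256) and -0.15 (FDR = 0.00316).

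GPX2, the gastrointestinal glutathione peroxidase (chr14:64939152-64942746, minus strand), rose in every comparison with control. In Caco-2 it stood at 14.0, 15.0 and 15.0 CPM in controls, 105, 94.4 and 98.1 with CoCl2 and 44.3, 38.0 and 35.9 with Oxy. In HT-29 it stood at 347, 363 and 374 CPM in controls, 1032, 959 and 957 with CoCl2 and 1060.2, 999 and 1067 with Oxy. Treated and control libraries were clearly separate in both lines, and even the highest Caco-2 library remained below all HT-29 controls, on CPM scaled within each line. GPX2 in Caco-2 rose 6.76-fold with CoCl2, a log2 fold change of 2.76 ± 0.0968 (SE, FDR = 1.40e-17) and rank 154 from the top among 16034 genes. With Oxy it rose 2.69-fold, by 1.43 ± 0.0986 (SE, FDR = 1.96e-11). In HT-29 it rose 2.72-fold with CoCl2 and 2.88-fold with Oxy, by 1.44 ± 0.0465 (SE, FDR = 1.76e-20) and 1.53 ± 0.0465 (SE, FDR = 4.09e-20).

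GPX3, the secreted form (chr5:151020591-151028988, plus strand), rose with both agents in both lines, most with CoCl2 in HT-29. There it stood at 17.9, 17.6 and 18.5 CPM in controls, 404, 379.7 and 370.5 with CoCl2 and 39.6, 35.2 and 39.6 with Oxy. Caco-2 libraries held 91.9, 95.2 and 92.8 CPM in controls, 484, 441 and 434 with CoCl2 and 270.1, 250.2 and 263 with Oxy. No group overlapped another within a line, and the order was control, Oxy, CoCl2 in both. The rise with CoCl2 was 21.3-fold in HT-29, a log2 fold change of 4.41 ± 0.0617 (SE, FDR = 6.33e-28), rank 91 from the top of 15812 genes. In Caco-2 it was 4.85-fold, at 2.28 ± 0.0744 (SE, FDR = 3.78e-18). Oxy raised GPX3 2.80-fold in Caco-2 and 2.12-fold in HT-29, by 1.48 ± 0.0732 (SE, FDR = 3.37e-14) and 1.08 ± 0.0661 (SE, FDR = 8.02e-14).

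The promoters of GPX2 and GPX3 are shown because, on the TMM scale, these were the 2 members whose log2 fold change was over 1 with both agents in both lines. With library size alone, GPX2 was at 0.81 with CoCl2 in HT-29 and GPX3 at 0.94 with Oxy in HT-29. RefSeq windows on GRCh38.p14, from 250 bases before to 50 after the start, were found for 8 members in 13 windows. SOD1 and PRDX1 had none in the table. The windows were searched on both strands for the core of the antioxidant response element (TGACNNNGC) and for the cores of hypoxia response elements (ACGTG and GCGTG). They were also searched for TGCNCNC, a loose form of the core of the metal response element, so a match need not fit that element. The 250 bases before the start are printed. In the GPX2 window, on the minus strand, capitals mark the antioxidant core, read on the other strand and beginning at position -122 from the start. In the GPX3 window, on the plus strand, capitals mark the ACGTG core, also on the other strand, at position -207.
GPX2, chr14:64942746-64942995: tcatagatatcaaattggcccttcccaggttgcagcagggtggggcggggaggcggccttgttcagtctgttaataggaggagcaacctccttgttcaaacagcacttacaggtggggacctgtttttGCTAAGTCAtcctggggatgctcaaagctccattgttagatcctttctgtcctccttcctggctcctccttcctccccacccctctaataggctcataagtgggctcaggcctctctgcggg
GPX3, chr5:151020341-151020590: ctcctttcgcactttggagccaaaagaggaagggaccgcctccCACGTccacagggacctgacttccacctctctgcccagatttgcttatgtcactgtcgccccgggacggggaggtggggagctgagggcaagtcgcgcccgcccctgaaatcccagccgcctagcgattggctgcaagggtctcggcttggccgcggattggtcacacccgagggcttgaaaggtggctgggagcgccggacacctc
GPX2 was the one member with TGACNNNGC, 1 of 13 windows, where 13.3% of all 35116 windows held it. None of the other 3 motifs was found in the GPX2 window. ACGTG was in 5 of 13 windows (GPX1, GPX3, PRDX3 and a pair of overlapping GPX4 windows) against 21.4% of all, GCGTG in 7 (GPX1, SOD2 and GPX4) against 36.5%, and TGCNCNC in 8 (GPX1, GPX3, SOD2, PRDX3 and GPX4) against 55.9%. The windows of CAT and GPX8 held none of the 4. In GPX1 and PRDX3 the ACGTG matches on the 2 strands shared letters, at CACGTG. A match of letters is not a bound site, and these windows leave out more distant elements.

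GPX4, which protects membranes from lipid peroxides (chr19:1103982-1106791, plus strand), rose by less. Its Caco-2 level was 186, 209.7 and 194 CPM in controls, 465, 377 and 371 with CoCl2 and 306, 301 and 319 with Oxy. HT-29 libraries held 145, 141 and 134 CPM in controls, 225, 214 and 217 with CoCl2 and 212, 214 and 227 with Oxy. All treated libraries were above all controls of their line, and the first CoCl2 library of Caco-2 was higher than the other two. On the log2 scale GPX4 rose by 1.04 ± 0.0833 (SE, FDR = 9.71e-11) with CoCl2 and by 0.65 ± 0.0830 (SE, FDR = 5.71e-07) with Oxy in Caco-2. In HT-29 the values were 0.65 ± 0.0483 (SE, FDR = 1.84e-12) and 0.64 ± 0.0478 (SE, FDR = 5.02e-12), close to each other. The CoCl2 value in HT-29 rested on the scale, being 0.012 (FDR = 0.816) with library size alone, while the Oxy value was 0.50 (FDR = 4.06e-10).

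GPX1, a cytosolic form (chr3:49357174-49358605, minus strand), passed as higher in no comparison with control. Its level was 29.3, 35.3 and 36.4 CPM in Caco-2 controls, 42.4, 29.9 and 31.8 with CoCl2 and 23.2, 27.2 and 36.2 with Oxy. In HT-29 it was 76.2, 76.0 and 75.4 CPM in controls, 60.6, 55.8 and 56.4 with CoCl2 and 78.6, 79.1 and 82.1 with Oxy. The Caco-2 libraries of 1 group differed widely and the groups overlapped, whereas in HT-29 the CoCl2 libraries were all below the controls and the Oxy libraries slightly above. GPX1 fell with CoCl2 in HT-29, at -0.40 ± 0.0510 (SE, FDR = 7.23e-08). Elsewhere it did not pass, with 0.039 ± 0.137 (SE, FDR = 0.812) and -0.22 ± 0.138 (SE, FDR = 0.184) in Caco-2 and 0.077 ± 0.0480 (SE, FDR = 0.16) for Oxy in HT-29. Without the third Oxy library of Caco-2 the Oxy value there was -0.41 (FDR = 0.0155). GPX1 shares 572 exon bases on its own strand with another protein-coding gene model of GENCODE v44. That model has no row under its name in the counts, for which the study's methods name an earlier release.

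GPX8, the endoplasmic reticulum member (chr5:55160167-55167297, plus strand), fell with both agents in HT-29 and rose with Oxy in Caco-2. In Caco-2 it was near the limit of detection, with 20, 31 and 25 counts in controls, 13, 16 and 36 with CoCl2 and 56, 51 and 44 with Oxy. Its HT-29 level was 26.5, 26.8 and 28.2 CPM in controls, 5.45, 4.29 and 6.17 with CoCl2 and 13.0, 14.8 and 13.6 with Oxy. The HT-29 groups did not overlap, and the order was control, Oxy, CoCl2 from the top. GPX8 fell 5.18-fold with CoCl2 and 1.98-fold with Oxy in HT-29, with log2 fold changes of -2.37 ± 0.105 (SE, FDR = 2.00e-17) and -0.99 ± 0.0827 (SE, FDR = 4.79e-11). The rise with Oxy in Caco-2 was 1.01 ± 0.278 (SE, FDR = 0.0041), and the CoCl2 value was -0.19 ± 0.314 (SE, FDR = 0.617), with a wide interval of -0.83 to 0.46.

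The 5 glutathione peroxidase genes were made up differently in the 2 lines. GPX4 held 58.8 ± 1.04% of their summed RPKM in Caco-2 controls, and GPX2 5.91 ± 0.143%. In HT-29 controls GPX2 held 62.3 ± 1.30% and GPX4 17.9 ± 0.974%. GPX3 went from 17.9 ± 0.739% in Caco-2 controls to 32.7 ± 1.27% with CoCl2 and 28.8 ± 0.873% with Oxy. In both lines GPX1 lost share under either agent, in Caco-2 from 17.2 ± 1.29% to 6.64 ± 0.624% with CoCl2 and 8.49 ± 1.76% with Oxy. In HT-29 GPX3 went from 1.47 ± 0.0339% to 13.0 ± 0.151% with CoCl2 but was 1.36 ± 0.0509% with Oxy, where GPX2 held 78.5 ± 0.548%. The summed RPKM of the 5 genes was 169 ± 9.69 in Caco-2 controls, 436 ± 44.7 with CoCl2 and 286 ± 9.79 with Oxy. In HT-29 it was 399 ± 6.58, 905 ± 38.2 and 898 ± 27.9. These shares are of transcripts, and they were described without a test.

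**Figure D3:**
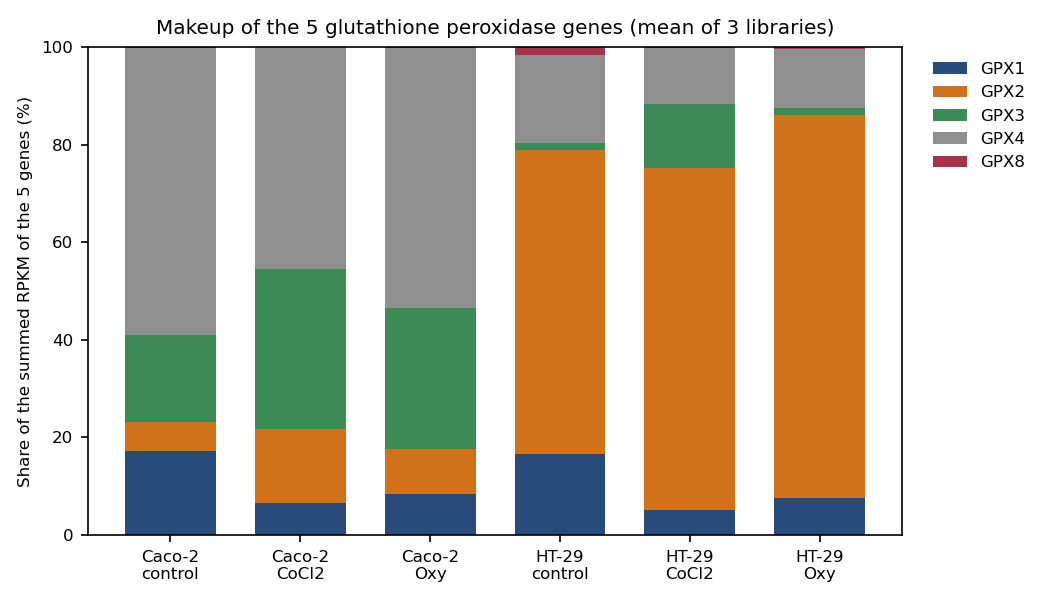
Share of each of the 5 glutathione peroxidase genes in their summed RPKM (percent, mean of 3 libraries), 1 bar per group. GPX2 makes up 15.1% or less in Caco-2 and 62.3% or more in HT-29, and GPX3 widens in treated Caco-2 and in HT-29 with CoCl2.

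PRDX1, the cytosolic peroxiredoxin (chr1:45510914-45542732, minus strand), rose in all 4 comparisons. In Caco-2 it stood at 271, 277 and 279 CPM in controls, 519.8, 497 and 524 with CoCl2 and 421, 332 and 306 with Oxy. In HT-29 it stood at 159.8, 161 and 177 CPM in controls, 577, 567 and 599 with CoCl2 and 260.3, 232 and 231 with Oxy. Every treated library was above every control of its line, and the first Oxy library of Caco-2 was much higher than its mates. The log2 fold change was 0.90 ± 0.0885 (SE, FDR = 3.86e-09) with CoCl2 and 0.36 ± 0.0882 (SE, FDR = 0.00168) with Oxy in Caco-2. It was 1.81 ± 0.0529 (SE, FDR = 2.15e-21) and 0.54 ± 0.0523 (SE, FDR = 8.57e-10) in HT-29, which is 3.50-fold and 1.45-fold. Without the first Oxy library the Caco-2 value was 0.21 (FDR = 0.0128). Exons of PRDX1 share 501 bases with MMACHC on the opposite strand, a gene with 41 to 277 counts per library.

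PRDX3, the mitochondrial peroxiredoxin (chr10:119167720-119178812, minus strand), fell in 3 of the 4. Caco-2 libraries held 243, 218 and 236 CPM in controls, 146, 159 and 166 with CoCl2 and 174, 164 and 167 with Oxy. HT-29 libraries held 187, 187 and 202 CPM in controls, 201, 218 and 206 with CoCl2 and 144, 141 and 147 with Oxy. Treated Caco-2 libraries and HT-29 libraries with Oxy lay below their controls, whereas HT-29 libraries with CoCl2 overlapped the controls. The falls, as log2 fold changes, were -0.57 ± 0.0739 (SE, FDR = 3.70e-07) and -0.46 ± 0.0736 (SE, FDR = 1.22e-05) in Caco-2 with CoCl2 and Oxy, and -0.41 ± 0.0489 (SE, FDR = 3.11e-08) in HT-29 with Oxy. With CoCl2 in HT-29 it passed narrowly as higher, at 0.12 ± 0.0488 (SE, FDR = 0.0317). That call failed in DESeq2, at 0.11 (FDR = 0.0622), and reversed with library size alone, at -0.52 (FDR = 7.92e-11). The ratio of PRDX1 to PRDX3 in RPKM was 2.67 ± 0.172 in Caco-2 controls, 7.38 ± 0.557 with CoCl2 and 4.70 ± 0.671 with Oxy, and in HT-29 it was 1.94 ± 0.0183, 6.28 ± 0.382 and 3.76 ± 0.268. It was higher in every treated library than in any control of the line. Reads on the pseudogenes of the members were few, the largest share being that of PRDX3P1, at up to 2.40% of the PRDX3 count in a library.

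The second comparison set the 2 agents against each other within a line. In Caco-2, 5 members were higher with CoCl2 than with Oxy (GPX2, SOD1, GPX3, PRDX1 and GPX4) and GPX8 was lower, against 24.4% and 25.2% of all genes. The log2 differences were 1.33 ± 0.0880 (SE, FDR = 1.26e-11) for GPX2, 0.93 ± 0.0830 (SE, FDR = 2.02e-09) for SOD1 and -1.19 ± 0.286 (SE, FDR = 0.00121) for GPX8. They were 0.80 for GPX3, 0.54 for PRDX1 and 0.39 for GPX4. In HT-29, 4 were higher with CoCl2 (GPX3, SOD1, PRDX1 and PRDX3) and 3 lower (GPX8, GPX1 and SOD2), against 37.1% and 40.6%. GPX3 differed most, by 3.33 ± 0.0568 (SE, FDR = 9.86e-26), a 10.1-fold difference, followed by SOD1 at 1.86 ± 0.0526 (SE, FDR = 2.11e-21) and PRDX1 at 1.27 ± 0.0518 (SE, FDR = 7.16e-18). GPX8 was 2.61-fold lower with CoCl2. GPX2, by contrast, did not pass in HT-29, at -0.084 ± 0.0452 (SE, FDR = 0.0912) with an interval of -0.18 to 0.0087, nor did GPX4, at 0.0074 ± 0.0475 (SE, FDR = 0.891) with an interval of -0.090 to 0.11. GPX2 passed as lower with CoCl2 under several alternatives, namely without the filter on low counts at -0.14 (FDR = 0.0252), with only the 2 groups compared at -0.11 (FDR = 0.0197), with limma on the deposited values at -0.15 (FDR = 0.0135), without the first CoCl2 library at -0.12 (FDR = 0.0366) and without the second Oxy library at -0.12 (FDR = 0.0381). With library size alone both genes were lower with CoCl2, at -0.58 (FDR = 1.39e-12) and -0.49 (FDR = 3.31e-10). The difference of PRDX3 in HT-29, 0.53 ± 0.0494 (SE, FDR = 2.40e-10), was 0.032 (FDR = 0.538) on that scale. SOD2 was lower with CoCl2 than with Oxy in HT-29, at -0.30 ± 0.0808 (SE, FDR = 0.00176), a call lost without the first Oxy library, at -0.14 (FDR = 0.0532), and in DESeq2, at -0.29 (FDR = 0.0672).

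**Figure D4:**
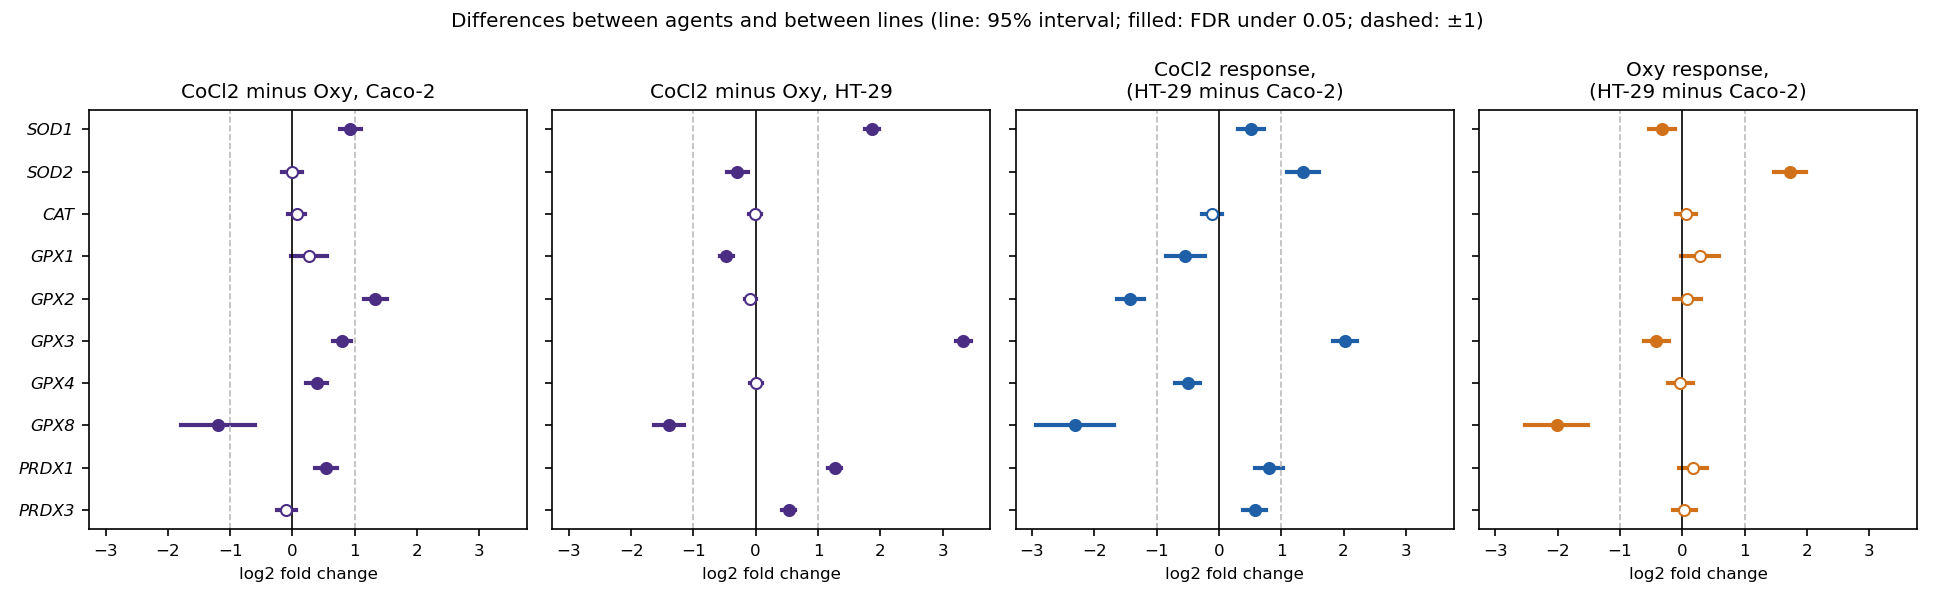
Log2 differences of the 10 members with 95% intervals, between the agents in each line (left pair of panels) and between the lines in the response to each agent (right pair, HT-29 minus Caco-2). Filled points passed an FDR of 0.05. GPX3 stands at 3.33 between the agents in HT-29, and the response of GPX8 is lower in HT-29 for both agents.

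The third comparison asked whether the lines responded unequally, with an interaction over all 18 libraries and 17921 genes. For CoCl2, 5 members responded more positively in HT-29 and 4 less positively, against 21.1% and 28.6% of all genes. GPX3 differed by 2.03 ± 0.0949 (SE, FDR = 1.88e-18) and SOD2 by 1.35 ± 0.129 (SE, FDR = 1.05e-10), with smaller values for PRDX1 (0.80), PRDX3 (0.57) and SOD1 (0.52). The response was lower in HT-29 for GPX8 and GPX2, at -2.31 ± 0.310 (SE, FDR = 1.17e-07) and -1.42 ± 0.105 (SE, FDR = 2.03e-13), and for GPX1 (-0.54) and GPX4 (-0.50). GPX8 and GPX1 fell in HT-29 and did not pass in Caco-2, whereas GPX2 and GPX4 rose in both lines, less so in HT-29. For GPX2 the larger rise with CoCl2 was thus in the line with the lower starting level, as it was for GPX3, in the other line. SOD1, SOD2 and PRDX1 also started lower and rose more with CoCl2 in HT-29. By contrast, GPX4 started lower in HT-29 and rose less there, and with Oxy the same was true of GPX3. Starting levels and responses share the control libraries, and a link between them was not tested. For Oxy, SOD2 alone responded more positively in HT-29, by 1.73 ± 0.128 (SE, FDR = 4.51e-13), and 3 members responded less positively, against 20.9% and 22.0%. They were GPX8 at -2.01 ± 0.249 (SE, FDR = 3.70e-08), GPX3 at -0.42 ± 0.0984 (SE, FDR = 6.87e-04) and SOD1 at -0.33 ± 0.103 (SE, FDR = 0.00918). Of these, GPX8 rose in Caco-2 and fell in HT-29, GPX3 rose in both lines, and SOD1 passed as higher in Caco-2 only. The Oxy response of GPX2 differed by 0.081 ± 0.108 (SE, FDR = 0.592) and that of GPX4 by -0.031 ± 0.0987 (SE, FDR = 0.849), neither of which passed. Their intervals were -0.14 to 0.30 and -0.23 to 0.17. Without the first Oxy library of Caco-2, PRDX1 passed as well, at 0.30 (FDR = 0.00537), and without the third so did GPX1, at 0.47 (FDR = 0.00628).

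Between the untreated lines all 10 members differed, 3 being higher in HT-29 and 7 lower, where 39.5% and 39.6% of all genes were. GPX2 was 26.3-fold higher in HT-29, a log2 difference of 4.72 ± 0.0827 (SE, FDR = 5.67e-32), GPX8 17.6-fold, at 4.14 ± 0.162 (SE, FDR = 5.13e-22), and GPX1 2.40-fold, at 1.26 ± 0.106 (SE, FDR = 7.69e-13). GPX3 was 4.86-fold lower in HT-29, at -2.28 ± 0.0730 (SE, FDR = 1.43e-24), and SOD2 2.94-fold lower, at -1.55 ± 0.0934 (SE, FDR = 9.74e-17). CAT followed at -0.91, then PRDX1 (-0.64), SOD1 (-0.53), GPX4 (-0.40) and PRDX3 (-0.18). PRDX3 lost its call without the first control library of either line, at -0.15 (FDR = 0.0522) and -0.15 (FDR = 0.0556).

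For the remaining genes of the same families, counts were made from a list. For this list and those below, 31.6% of all genes rose and 33.1% fell with CoCl2 in Caco-2. The shares were 25.7% and 24.7% with Oxy there. In HT-29 they were 40.7% and 42.2% with CoCl2, and 34.7% and 34.0% with Oxy. No list was tested against these shares. Of 9 such genes, Caco-2 allowed 7 to be tested and HT-29 allowed 6, GPX5 and GPX6 in neither. In the order CoCl2 and Oxy in Caco-2, then CoCl2 and Oxy in HT-29, 2 rose and 3 fell, 2 rose and 3 fell, 4 rose and 1 fell, and 2 rose and 2 fell. The medians were -0.11, 0.14, 0.23 and -0.025, and with library size alone the middle 2 were -0.010 and -0.41. PRDX6, a peroxiredoxin that also reduces phospholipid peroxides, had log2 fold changes of 0.88, 0.57, 0.69 and -0.13 in that order, the third of which was 0.059 with library size alone. CCS, the chaperone that loads copper into SOD1, had -0.39, -0.54, 0.65 and 0.60, all passing, the third of which was 0.020 with library size alone. PRDX4 of the endoplasmic reticulum had 0.40, 0.20, 0.17 and -0.049, the last of which did not pass, and the third was -0.46 with library size alone. The extracellular SOD3 passed as lower in HT-29, at -0.72 ± 0.268 (SE, FDR = 0.0155) and -1.37 ± 0.273 (SE, FDR = 7.49e-05). In Caco-2 it did not pass, and its errors were wide, at -0.032 ± 0.430 (SE, FDR = 0.952) and 0.14 ± 0.420 (SE, FDR = 0.801).

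Peroxiredoxins draw on thioredoxin and glutathione peroxidases on glutathione, so the genes of both supplies were counted, beside the same shares of all genes. Of 12 glutathione supply genes, 11 were tested, and in the same order 7 rose and 4 fell, 8 rose and 1 fell, 8 rose and 2 fell, and 7 rose and 3 fell, with medians of 1.11, 0.52, 1.18 and 0.55. GCLM and GCLC, the subunits of the enzyme that starts glutathione synthesis, had log2 fold changes of 2.60, 0.45, 4.07 and 1.36 and of 1.99, 0.59, 3.47 and 2.34. Among the suppliers of reducing power, ME1 had 1.89, 0.99, 3.56 and 1.82, and GSR, which recycles glutathione, had 1.39, 0.52, 2.56 and 1.32, all passing. Of 12 thioredoxin system genes, 3 rose and 5 fell among 11 tested in Caco-2 with CoCl2 and 3 rose and 4 fell with Oxy. In HT-29, where all 12 were tested, 6 rose and 6 fell with CoCl2 and 4 rose and 7 fell with Oxy. TXNRD1, the reductase of cytosolic thioredoxin, had 2.43, 0.84, 3.67 and 1.94, and GLRX, a glutaredoxin, 1.89, 0.76, 3.03 and 1.25. SRXN1, which repairs overoxidised peroxiredoxins, was tested in HT-29 only and rose by 4.72 with CoCl2 and 2.89 with Oxy. TXN rose with CoCl2 in Caco-2 and with both agents in HT-29, at 0.54, 1.84 and 1.19. TXNRD3, a thioredoxin and glutathione reductase, fell in all 4, at -0.66, -0.46, -1.94 and -0.37. The median of all tested thioredoxin system genes was -0.17, -0.041, 0.030 and -0.24, and with library size alone the third of these was -0.60. TXN2 and TXNRD2, the mitochondrial pair that serves PRDX3, were lower where they passed, TXN2 in all 4 (-0.25, -0.24, -0.21 and -0.27) and TXNRD2 in all but Oxy in Caco-2 (-0.51, -0.036, -0.48 and -0.40).

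GPX1 to GPX4 need selenocysteine for their activity. Of 11 genes of selenoprotein synthesis, 3 rose and 5 fell with CoCl2 and 4 rose and 5 fell with Oxy in Caco-2, and 6 rose and 5 fell and 5 rose and 4 fell in HT-29. Their median log2 fold changes were -0.24, -0.17, 0.37 and -0.062 in that order, the third turning to -0.27 with library size alone. LRP8, a receptor that takes up selenium transport protein, rose in all 4, at 1.86, 0.39, 1.50 and 1.65. SEPHS1 fell in all 4 (-0.81, -0.32, -1.28 and -0.78), while SEPHS2, the enzyme that makes selenophosphate, fell in Caco-2 and rose in HT-29, at -1.15, -0.77, 0.37 and 0.47, the third of which was -0.27 with library size alone. Of 14 other selenoprotein genes, 12 were tested in each line, of which 4 rose and 4 fell and 3 rose and 5 fell in Caco-2 with CoCl2 and Oxy, and 8 rose and 1 fell and 6 rose and 1 fell in HT-29. Their medians were -0.037, -0.083, 0.57 and 0.18, the third being -0.065 with library size alone. SELENOK, a protein of the endoplasmic reticulum, had 1.46, 0.68, 3.08 and 1.26. MSRB1, which repairs oxidised methionine, had 0.069, -0.91, 2.52 and 0.57, and its first value did not pass. SELENON had -1.22, -0.29, -2.13 and -0.049, the last of them not passing.

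CAT works in peroxisomes, and SOD2 and PRDX3 in the mitochondrial matrix. Of 20 peroxisome genes, 4 rose and 11 fell with CoCl2 and 1 rose and 9 fell with Oxy in Caco-2, and of 19 tested in HT-29 10 rose and 7 fell and 7 rose and 6 fell. The medians were -0.22, -0.24, 0.20 and 0.0023, of which the last 2 were -0.43 and -0.13 with library size alone. EHHADH, an enzyme of peroxisomal fatty acid oxidation, fell in all 4, at -1.72, -1.41, -2.81 and -1.19, and so did the import receptor gene PEX7, at -1.15, -0.52, -1.70 and -0.38. PEX14, part of the import pore, rose with CoCl2 in both lines and with Oxy in HT-29, at 0.61, 1.49 and 0.51. Of 10 mitochondrial proteases and chaperones, 6 rose and 2 fell with CoCl2 and 3 rose and 2 fell with Oxy in Caco-2, and 8 rose and 2 fell and 3 rose and 1 fell in HT-29. Here the medians were 0.31, 0.056, 0.72 and 0.041, and with library size alone they were -0.016, -0.10, 0.090 and -0.095. LONP1, a matrix protease, rose in all 4, at 0.70, 0.47, 1.38 and 0.62, as did the inner membrane protease gene YME1L1, at 0.62, 0.46, 0.79 and 0.28. HSPE1 fell in Caco-2, at -0.92 and -0.48, and rose with CoCl2 in HT-29, at 0.84.

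For the 3 members with the largest change, the genes with the most similar pattern were sought among 9455 genes with a mean of at least 10 CPM, by the root mean square difference of the log2 change from the control mean of the line over the 12 treated libraries. GPX2 was nearest to PLAUR, the urokinase receptor gene, at 0.211, whose log2 fold changes were 2.74, 1.68, 1.31 and 1.53 in the order used above. TINAGL1 and EEF1A2 followed at 0.424 and 0.429. The genes nearest to GPX3 were UFD1, GLA and KDM3A, at 0.457, 0.460 and 0.519. KDM3A, a histone demethylase gene, had log2 fold changes of 2.19, 1.83, 3.54 and 0.64. GPX8 was nearest to E2F8, a cell cycle factor gene, at 0.298 with changes of -0.49, 1.05, -2.55 and -0.88, and next to OTULINL and SYK, at 0.308 and 0.321.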

How the data were processed

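The authors deposited raw counts of reads per gene and a table of log2 values. Per the submitters' notes and the study's methods, which describe the Caco-2 libraries, polyadenylated RNA was sequenced as single-end reads of 75 nucleotides, trimmed with cutadapt 2.10, aligned with STAR 2.7.5b to GRCh38.p13 and counted on GENCODE gene models. The counting tool and its use of strand are not given in the sources used here. The log2 table deposited by the authors was found to hold log2(RPKM + 1), adjusted by TMM within each line, and it gave the RPKM values.

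Groups came from the sample titles, and 0 per-sample columns lacked a sample. Counts were tested in edgeR 4.0.16 (R 4.3.3) with filterByExpr, TMM and the two-sided quasi-likelihood F test, over the 9 libraries of a line, and over all 18 for differences between lines. FDR is the Benjamini-Hochberg adjusted p over all genes tested. CPM in the text are on TMM-scaled library sizes of the line. The study used DESeq2, here an alternative (1.42.0) beside limma 3.58.1 and the scalings, filters and left-out libraries listed in the closing section. In simulated data with 100 genes changed by a log2 value of 1, the test recovered 96% of them in the simulation of CoCl2 against control in Caco-2, run on 15606 genes, and 85% in that of the Oxy interaction, run on 16853. The simulation changed only well-counted genes and used an assumed spread, without a shift of scale or a library that stood apart. Its rates therefore do not cover genes with few counts, such as GPX8 in Caco-2, or those features of the real libraries. Counts gave no molecular identifiers, and intervals are those of the fit.

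The members and the gene lists were chosen with earlier results of these data known. The text names all 10 members, up to 5 genes of a list with the largest absolute log2 fold change among those passing, and the 3 genes nearest in pattern to each of the 3 members that changed most. TXN2, TXNRD2, GPX5 and GPX6 were named after their values were seen. Gene positions and exon overlaps were read from GENCODE v44 (GRCh38), and promoter sequences are from RefSeq on GRCh38.p14. The study's methods name an earlier GENCODE release for the counts, so overlaps there may differ. The miRNA tables were not used.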

Additional observations from a re-analysis of the deposited data

Results flagged for a closer look

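For 13 member responses the difference between the lines passed the interaction test, where a positive value means a response that was higher in HT-29 than in Caco-2. For CoCl2 these were GPX3 at 2.03 (FDR = 1.88e-18), SOD2 at 1.35 (FDR = 1.05e-10), PRDX1 at 0.80 (FDR = 1.95e-07), PRDX3 at 0.57 (FDR = 1.75e-06) and SOD1 at 0.52 (FDR = 5.90e-05). Lower in HT-29 were GPX8 at -2.31 (FDR = 1.17e-07), GPX2 at -1.42 (FDR = 2.03e-13), GPX1 at -0.54 (FDR = 0.0034) and GPX4 at -0.50 (FDR = 6.28e-05). For Oxy, SOD2 was higher at 1.73 (FDR = 4.51e-13), and GPX8, GPX3 and SOD1 were lower at -2.01 (FDR = 3.70e-08), -0.42 (FDR = 6.87e-04) and -0.33 (FDR = 0.00918). Both agents shared the control libraries of a line. Line and the 21 days of differentiation cannot be told apart. The counts behind GPX8 in Caco-2 were 13 to 56 per library.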

How the results depend on the processing

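Of 65 member values past the threshold, 59 kept their direction and their side of it under every alternative run, and 6 did not. The 6 were PRDX3 for CoCl2 and between the agents in HT-29 and between the untreated lines, SOD1 for Oxy in Caco-2, SOD2 between the agents in HT-29, and GPX4 for CoCl2 in HT-29. Of the 25 values that did not pass, 3 kept direction and side under every alternative and 22 did not. Among these, 15 passed under at least 1 alternative and 11 changed sign under at least 1. With the added fold limit, the number of passing members became 3 for Oxy in each line. Between the agents it became 2 (Caco-2) and 4 (HT-29). For the line differences it became 4 (CoCl2) and 2 (Oxy), and between the untreated lines 5. The share of all genes past this limit was computed only for treatment against control. The counts between agents, between line responses and between untreated lines therefore cannot be set against a background. With library size only, PRDX3 for CoCl2 in HT-29 was -0.52, GPX4 between the agents in HT-29 was -0.49, SOD2 in Caco-2 was -0.32 for CoCl2 and -0.15 for Oxy, GPX1 was -0.28 for CoCl2 in Caco-2 and -0.060 for Oxy in HT-29, CAT between the agents in Caco-2 was -0.10, and GPX4 in the line difference for Oxy was 0.0026. The other reversals were of values that did not pass either way. SOD2 for CoCl2 in Caco-2 was -0.00050 with only the compared groups, -0.034 with limma on the deposited values and -0.034 with a pseudocount of 0.1. SOD2 for Oxy in Caco-2 was -0.030 and -0.031 with these limma fits, and GPX1 for CoCl2 was -0.0047 and -0.0051. Between the agents, SOD2 in Caco-2 was 0.0039 with median-of-ratios size factors, and CAT in HT-29 was 0.015 with them and 0.0014 in DESeq2. GPX4 in HT-29 was -0.047 without the filter, -0.015 with only the compared groups, and -0.060 and -0.060 in limma. Leaving out 1 library at a time gave ranges that crossed 0 for SOD2 in Caco-2 with CoCl2 (-0.032 to 0.053), with Oxy (-0.078 to 0.062) and between the agents (-0.056 to 0.090). The same held for GPX1 (-0.12 to 0.14) and GPX8 (-0.54 to 0.0071) with CoCl2 in Caco-2, SOD1 with Oxy in HT-29 (-0.085 to 0.012), CAT (-0.046 to 0.016) and GPX4 (-0.0099 to 0.038) between the agents in HT-29, and GPX4 in the line difference for Oxy (-0.083 to 0.0075). The cause of these changes was not tested.

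Correlations of same-numbered libraries lay within the range of those with unlike numbers, which does not exclude that the numbers pair libraries. With the replicate number as a block, the number of passing members stayed at 6 (CoCl2) and 7 (Oxy) for Caco-2 and at 9 and 7 for HT-29, at 6 and 7 between the agents, at 9 and 4 for the line differences and at 10 between the untreated lines. With the block SOD2 between the agents in Caco-2 was 0.00051. In their deviations from the group mean, same-numbered libraries correlated at -0.21 to 0.22 in Caco-2 and at -0.084 to 0.083 in HT-29. Libraries with unlike numbers correlated at -0.27 to 0.32 and at -0.11 to 0.10. GPX8 in Caco-2 had the fewest counts of any member in either line, at 13 to 56 per library.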
